A study of Mus musculus with 3 samples.

Results

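Integrins and cadherins are the receptors by which cells hold to matrix and to each other. The gene set described here holds every mouse gene on the array with an integrin α symbol (Itga), an integrin β symbol (Itgb) or a numbered cadherin symbol (Cdh), apart from the endothelial cadherin Cdh5. Members were chosen by symbol alone, without their measured values. The rule found 48 of the 35019 genes with a probe, and 71 probes measured them. They are 18 integrin α genes, 8 integrin β genes and 22 cadherin genes. Besides the classical cadherins, the symbols take in Cdh13, Cdh16, Cdh17, Cdh23 and Cdh26, which are not classical cadherins.

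The tissue was the posterior frontal suture, the fibrous joint between the frontal bones of the mouse skull. All mice were C57BL/6. One group was wild type (Runx2+/+) at postnatal day 5 (P5), another was wild type at P7, and the other was heterozygous (Runx2+/-) at P7. Runx2 is the transcription factor that osteoblast differentiation requires, and the series title concerns its part in suture closure. Each group's total RNA, labelled with Cy3, was read on 1 one-colour Agilent array. Below, the P5 array and the P7 array are those of the wild-type mice, and the heterozygous array is that of the Runx2+/- mice at P7. Levels in a row are given in that order. The labels state neither the number of mice behind an array nor what the Runx2 allele lacks. No group has a replicate, so each difference is between 2 hybridised samples, with no test and no p-value.

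An integrin is a pair of an α and a β chain that spans the cell membrane, binds matrix or a counter-receptor outside the cell and couples to the actin skeleton through talin and kindlin inside it. The α chain largely sets the ligand: collagens, laminins, proteins with an Arg-Gly-Asp (RGD) motif, or, for the leukocyte integrins, receptors on other cells and complement. Classical cadherins bind the same or a related cadherin on a neighbouring cell and attach to actin through catenins. In skull bone, integrins with the Itgb1 chain are known from osteoblasts and their precursors, the pair of Itgav and Itgb3 from osteoclasts, and the cadherins Cdh2 and Cdh11 from osteoblasts and mesenchyme.

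A level below is the log2 signal of a gene's brightest probe above the 75th percentile of all probes on the same array, so a level of 0 equals that percentile. Levels of different genes come from different probes and are not compared with each other. The arrays differed in brightness, with the 75th percentile at 52.1, 22.8 and 124.3 intensity units on the P5, P7 and heterozygous arrays. Of all probes, 40.08%, 29.2% and 47.33% were well above background by the scanner's flag. From probes spotted repeatedly on each array, the SD of a log2 difference was 0.22 for P7 against P5 wild type and 0.20 for P7 Runx2+/- against P7 wild type. This SD covers spot noise and no difference between animals. Runx2 itself differed by -0.92 log2 units between P7 and P5 wild type and by -0.38 between the genotypes. Since what the allele lacks is not stated, this does not check the genotype label. Osteoblast markers (8 of 8 measured) and suture mesenchyme markers (5 of 6, all but Axin2) were well above background on all 3 arrays. The muscle markers Ckm, Myh3 and Myog were at background on every array. Of the other muscle markers, Acta1 was well above background on all 3 arrays, and Des and Tnnt3 on the P5 and heterozygous arrays only. The epithelial markers Krt14, Epcam and Krt8 were at background on every array. The other epithelial markers, Krt5, Krt15 and Krt18, were above background on the P5 array, and Krt5 and Krt15 were at least 3.85-fold and 2.41-fold lower on the P7 array. In such bulk tissue, fewer cells of a type and less RNA per cell cannot be told apart.

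For some members the probe decided the result, and the sequences of those probes are therefore shown first. Each was taken from the array files, is written 5′ to 3′ in the sense of the transcript, and has its mm9 position with it. Itgam, the α chain of the leukocyte receptor Mac-1, has 3 probes. Capitals mark an unbroken run of CA units, of which the third probe holds 10. For that probe the first 30 of its 60 bases are printed.
Itgam, transcript position 270, chr7:135212140-135212199, plus strand: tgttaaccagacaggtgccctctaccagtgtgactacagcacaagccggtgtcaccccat
Itgam, transcript position 3410, chr7:135260275-135260334, plus strand: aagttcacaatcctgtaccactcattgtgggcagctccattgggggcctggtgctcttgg
Itgam, transcript position 4431, chr7:135261755-135261814, plus strand: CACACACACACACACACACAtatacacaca

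Itga1, a collagen receptor chain, and Itgb1, the β chain that pairs with most matrix-binding α chains, have a pair of probes each. They are shown because the probes of each gene gave different values. The genome spans of both Itga1 probes and of the second Itgb1 probe (4139, 1655 and 5896 bases) exceed the probe length of 60 bases, so these probes cross a splice junction.
Itga1, transcript position 683, chr13:115821387-115825525, minus strand: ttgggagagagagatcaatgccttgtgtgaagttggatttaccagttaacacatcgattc
Itga1, transcript position 3710, chr13:115756765-115758419, minus strand: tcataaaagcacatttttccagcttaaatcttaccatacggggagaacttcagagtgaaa
Itgb1, transcript position 1840, chr8:131246349-131246408, plus strand: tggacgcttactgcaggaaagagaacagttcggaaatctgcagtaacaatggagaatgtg
Itgb1, transcript position 2631, chr8:131250081-131255976, plus strand: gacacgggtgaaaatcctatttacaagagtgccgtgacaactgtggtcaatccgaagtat

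The suture signal held most matrix-binding integrins above background and a smaller share of the cadherins. Of 19 matrix-binding integrin genes, 17 were well above background on at least 1 array and 14 on all 3. Of 7 leukocyte integrin genes the counts were 5 and 3, and of 22 cadherin genes they were 11 and 5. Over all genes, 57.18% were above background on at least 1 array and 36.66% on all 3. The shares were 89.47% and 73.68% for matrix-binding integrins, 71.43% and 42.86% for leukocyte integrins, and 50% and 22.73% for cadherins. By array, 31 members passed on the P5 array, 22 on the P7 array and 32 on the heterozygous array, which follows the order of the arrays' brightness.

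The 15 members at background on every array were Itgb6 and Itgb8 (β chains that pair with Itgav in epithelia and in brain and immune cells), Itgad and Itgae (leukocyte α chains), and 11 cadherins. Those cadherins were Cdh1, the cadherin of epithelia, the type II cadherins Cdh7, Cdh9, Cdh10, Cdh12, Cdh19, Cdh20 and Cdh24, and Cdh16, Cdh17 and Cdh23. Cdh16 and Cdh17 are known from kidney and gut epithelium, and Cdh23 from hair cells of the inner ear. For these genes the arrays give no order between groups.

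**Figure D1:**
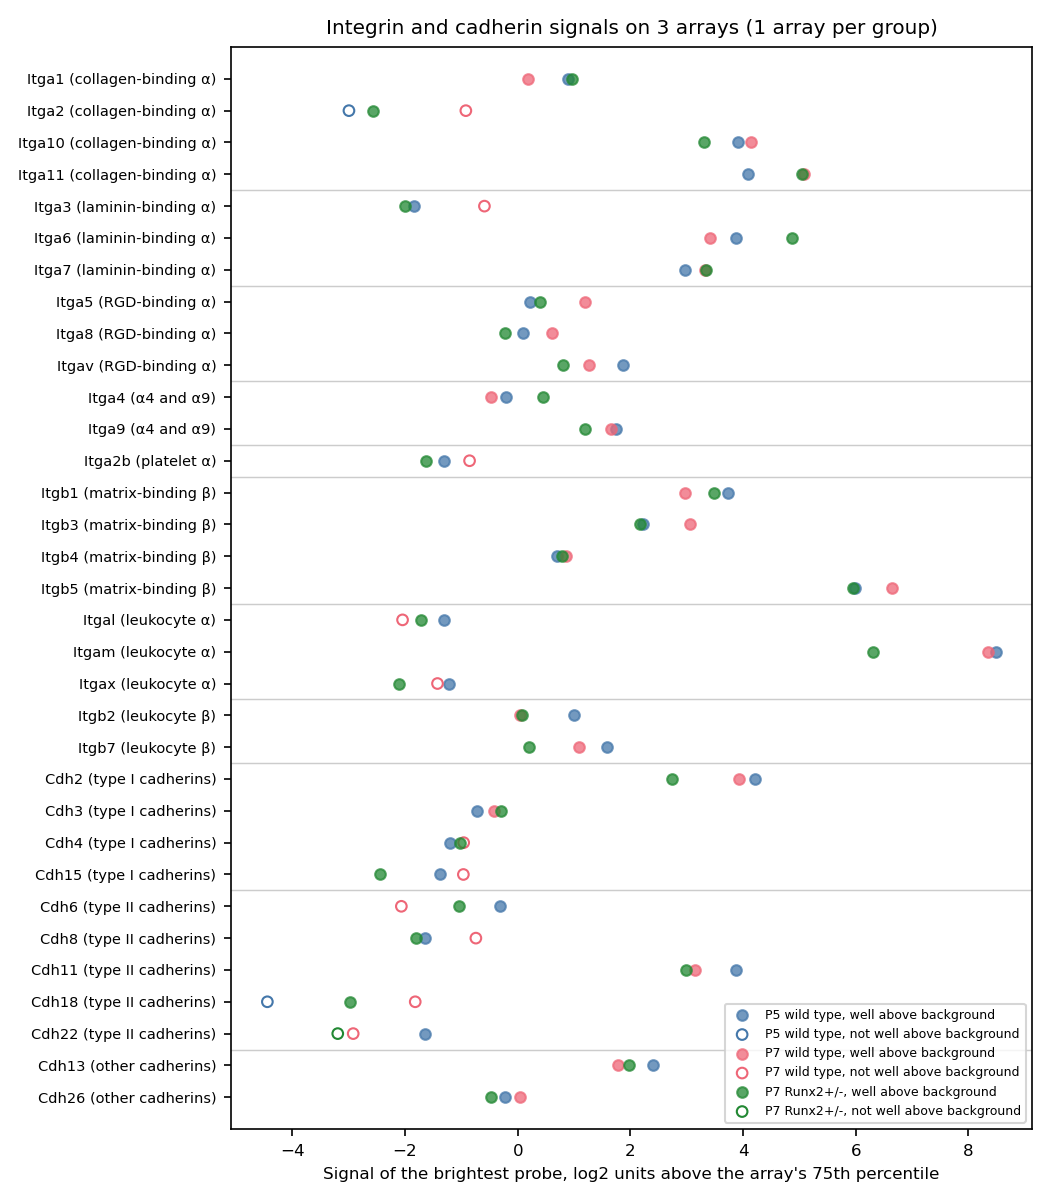
Level of each of the 33 members well above background on at least 1 array, on a log2 scale with 0 at the 75th percentile of its array (x axis). Each point is 1 array, filled where the probe was well above background and open where it was not; rows are grouped by role, and points of different rows come from different probes. Cdh2 and Itgam lay lowest on the heterozygous array and Itga6 lay highest there.

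The comparison of P7 with P5 wild type asked what changed in the suture over 2 days. By its brightest probe no member was 2-fold apart, while 9.61% of the 14332 genes with an order were, 6.33% higher and 3.29% lower. Of the 22 members above background on both arrays, 3 differed by less than the spot SD and 19 by more. The median log2 difference was 0.20 over 14 matrix-binding integrins (8 above 0, 6 below), -0.49 over 3 leukocyte integrins and -0.38 over 6 cadherins, beside 0.03 over all genes. With normexp background correction before the 75th percentile the matrix-binding median was -0.13, beside -0.24 over all genes in that setting. These medians describe the members that had an order and stand on no test; a bound, as for Cdh6, enters a median at its value.

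The comparison of P7 Runx2+/- with P7 wild type asked how the Runx2+/- suture differed at that age. It shares the P7 array with the age comparison, so a high or low value on that array moves both differences in opposite directions. Of 22 members with an order, 1 was at least 2-fold higher (Itga6) and 2 were at least 2-fold lower (Itgam and Cdh2). Among the 14420 genes with an order, 19.0% were 2-fold apart, 5.2% higher and 13.8% lower, so the members' share is not above that of all genes. The median log2 difference was -0.27 over 14 matrix-binding integrins (5 above 0, 9 below), -0.90 over 3 leukocyte integrins and -0.17 over 5 cadherins, beside 0.13 over all genes. The matrix-binding median turned to 0.39 with normexp before the 75th percentile, and the cadherin median to 0.12 with the mean over probes. Of the 22, 7 differed by less than the spot SD and 15 by more. The split between higher and lower depends on background correction and scaling. With normexp before the 75th percentile, 4 members were 2-fold higher and 0 lower, and the median of all genes moved to 0.62. With normexp before the median of detected probes, 1 was higher and 4 were lower, and with cyclic loess 1 was higher and 6 were lower.

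**Figure D2:**
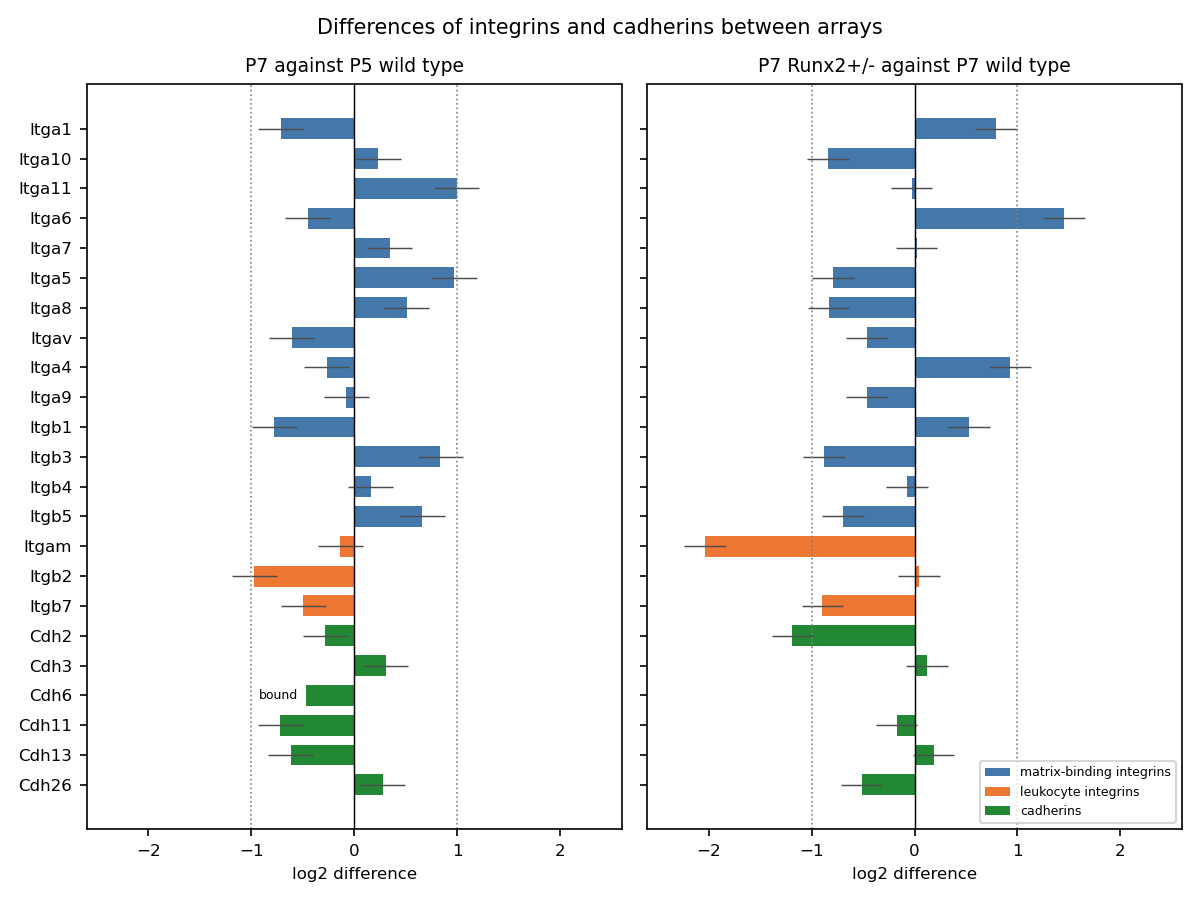
Log2 difference (x axis) of each member with an order, P7 minus P5 wild type on the left and P7 Runx2+/- minus P7 wild type on the right. Bars are differences between 2 arrays, lines are ± 1 SD of repeated spots (0.22 and 0.20), dotted lines mark 2-fold, and the bar of Cdh6 is a lower bound. In the left panel no bar passes 2-fold; in the right panel Itga6, Itgam and Cdh2 do.

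Of the laminin-binding α chains, Itga6 was the member with the highest genotype difference. Its levels were 3.87 on the P5 array, 3.41 on the P7 array and 4.87 on the heterozygous array. The heterozygous array lay above both wild-type arrays, by 1.45 (2.74-fold) against P7 and by 1.0 against P5. Under the 6 ways of scaling and background correction tried, its genotype difference stayed between 1.34 and 2.42. Its other probe, at chr2:71690633-71690692, gave 2.05, 2.32 and 2.82 and thus a genotype difference of 0.50, and the mean over both probes, 0.98, fell just under 2-fold. Itga6 is known from endothelial cells, platelets and epithelia. Endothelial markers moved with it: 6 of 6 were measured, their median genotype difference was 1.40, 4 were 2-fold higher and 1 (Kdr, -1.97) was 2-fold lower. Their summed signal was 118.2, 112.4 and 195.5 times the 75th percentile on the P5, P7 and heterozygous arrays. The endothelial cadherin Cdh5, which the rule leaves out, was 1.51 higher. The part of these cells in the Itga6 value was not tested.

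The other laminin-binding chains showed little. Itga7, known from muscle, had levels of 2.98, 3.32 and 3.35 on the P5, P7 and heterozygous arrays. Its genotype difference of 0.02 was under the spot SD, and its sign turned with the scaling. In the same comparison the muscle marker Acta1 differed by -0.35, and Tnnt3, not above background on the P7 array, was at least 1.51-fold higher on the heterozygous array. Itga3 was well above background on the P5 and heterozygous arrays only, at -1.84 and -2.01. The β chain Itgb4, which pairs with Itga6 in hemidesmosomes, had levels of 0.69, 0.86 and 0.78 and lay within the spot SD in both comparisons.

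Among the collagen-binding α chains, Itga11 and Itga10 were well above background throughout. Itga11, a receptor for fibrillar collagen on fibroblasts and mesenchymal cells, had levels of 4.09, 5.08 and 5.05. Both P7 arrays lay above the P5 array, by 0.99 (1.99-fold) for wild type, and they differed from each other by less than the spot SD. Under normexp with the 75th percentile its age difference was 0.23 and its genotype difference 1.22, and under normexp with the median of detected probes the latter was 0.51. The sign of the Itga11 genotype difference turned in 4 of 6 scalings. Itga10, a collagen receptor known from chondrocytes, had levels of 3.91, 4.14 and 3.30 and was lowest on the heterozygous array, with a genotype difference of -0.84 (1.79-fold). Its second probe, which overlaps the first, gave -0.94. Under normexp with the 75th percentile the sign turned, to 0.29, beside a median of 0.62 over all genes. Of 5 chondrocyte markers with an order, 4 lay above 0 for genotype and 1 (Acan, -0.67) below, with a median of 0.83 and Col2a1 at 2.38. Itga2 was well above background on the heterozygous array alone, at -2.58, which is below the floor of both other arrays and gives no order.

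For Itga1 the probes disagreed in sign. With the probe at position 3710 the levels were 0.89, 0.18 and 0.97 and the genotype difference 0.79. That at position 683 gave levels of 1.59, 0.62 and -0.37 and a genotype difference of -0.99. In the age comparison both gave lower values at P7, -0.72 and -0.97. No direction between genotypes can be given for Itga1. The mean of the probes was -0.10.

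**Figure D3:**
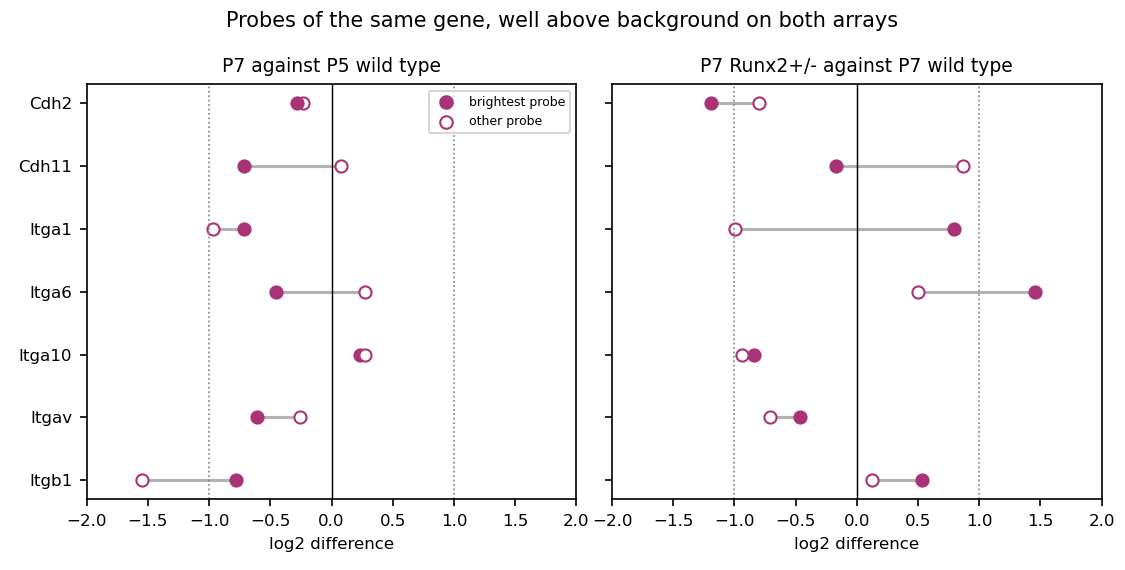
Log2 differences (x axis) for the 7 members with a pair of probes above background on both arrays, P7 minus P5 wild type on the left and P7 Runx2+/- minus P7 wild type on the right. Filled points are the brightest probe, open points the other, and dotted lines mark 2-fold. Probes of Itga1 and Cdh11 fall on opposite sides of 0 for genotype, and probes of Itga6 and Cdh11 do for age.

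Across those 7 genes, probes of the same gene differed by 0.10 to 1.79 log2 units for genotype (median 0.41) and by 0.04 to 0.79 for age (median 0.34). Most of these gaps exceed the spot SD of a single log2 difference, though a gap between such differences carries more spot noise. In the genotype comparison the probe nearer the 3′ end of the gene gave the higher value in 5 of 7 genes, and in the age comparison in 4 of 7. Whether the integrity of the RNA had a part in this was not tested.

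The RGD-binding α chains Itga5, Itga8 and Itgav were all lower on the heterozygous than on the P7 array, each by less than 2-fold. Itga5, the fibronectin receptor chain, had levels of 0.22, 1.19 and 0.39, so the P7 array stood above the other two, by 0.97 over P5 and by 0.79 over the heterozygote. Itga8 had levels of 0.10, 0.61 and -0.22, with an age difference of 0.51 and a genotype difference of -0.83. Npnt (nephronectin), the matrix ligand of Itga8, had an age difference of 1.32 and a genotype difference of -2.76. The latter was the largest of the integrin ligands measured. Itgav, which pairs with several β chains to bind vitronectin, fibronectin and osteopontin, had levels of 1.87, 1.26 and 0.80, an order in which P5 was highest and Runx2+/- lowest. Its genotype difference was -0.46 and that of its other probe -0.71. With normexp before the 75th percentile the Itgav genotype difference was 0.09, the only sign change among these 3 genes over the 6 scalings. The median of all genes was 0.62 in that setting. For the ligands named beside Itgav, the genotype difference was 0.44 for Vtn (vitronectin), 0.27 for Fn1 (fibronectin) and -1.77 for Spp1 (osteopontin).

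Of the β chains that bind matrix, Itgb3 and Itgb5 followed the pattern of Itga5. Itgb3, the partner of Itgav in osteoclasts and of Itga2b in platelets, had levels of 2.22, 3.06 and 2.17. The P7 array was 0.84 above P5 and 0.88 above Runx2+/-, while P5 wild type and Runx2+/- were 0.04 apart. The other Itgb3 probe, at position 2618, was at background on every array. Of 5 osteoclast markers with an order, 3 were 2-fold higher for age and 4 were 2-fold lower for genotype. The exception for genotype was Ctsk, at -0.06, within the spot SD. Their medians were 1.1 for age and -2.74 for genotype, and Atp6v0d2 differed by 1.37 and -3.45. The summed signal of the 6 markers was 150.4, 304.4 and 135.7 times the 75th percentile on the P5, P7 and heterozygous arrays. The part of osteoclasts in the Itgb3 value was not tested. Itgb5, a vitronectin receptor chain, had levels of 5.98, 6.64 and 5.95, with differences of 0.66 and -0.70. With normexp before the 75th percentile the genotype differences of Itgb3 and Itgb5 turned to 0.18 and 0.50, and the age difference of Itgb5 was -0.012. In that setting the medians of all genes were 0.62 for genotype and -0.24 for age. A high value on the P7 array and a change at both steps cannot be told apart, since that array enters both differences.

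Itgb1 showed the opposite order. The probe at position 2631 had levels of 3.74, 2.96 and 3.49, and the P7 array was lowest, 0.78 below P5 and 0.53 below Runx2+/-. Its probe at position 1840 had levels of 2.91, 1.37 and 1.49, which is an age difference of -1.55, past 2-fold, and a genotype difference of 0.12. Both probes of Itgb1 were therefore lower at P7 in wild type, by amounts that differ by 0.77.

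The α4 and α9 chains bind VCAM-1, tenascin-C and osteopontin. Itga4, known from leukocytes and neural crest cells, had levels of -0.22, -0.48 and 0.45, highest on the heterozygous array with a genotype difference of 0.93 (1.90-fold). It lay in the dimmest eighth of genes, whose median genotype difference was -0.63, and its other probe was at background. Under normexp with the median of detected probes the Itga4 genotype difference was -0.18. Its counter-receptor Vcam1, chosen after its value was seen, was 1.04 higher on the heterozygous array. Itga9 had levels of 1.74, 1.66 and 1.20, with a genotype difference of -0.47, which normexp before the 75th percentile turned to 0.19. That setting put the median of all genes at 0.62. The ligands Tnc (tenascin-C) and Spp1 (osteopontin) were lower on the heterozygous array by 1.61 and 1.77 log2 units. Itga2b, the platelet α chain, was above background on the P5 and heterozygous arrays only, at -1.30 and -1.63. The platelet marker Pf4 was 0.69 log2 units higher on the heterozygous than on the P7 array, and Ppbp, not above background on the P7 array, was at least 2.73-fold higher. Gp1bb and Gp9 had no order there, and Gp1ba was at background on every array. Between the heterozygous and P5 arrays Itga2b differed by -0.33. In that pair Pf4 (0.87) and Ppbp (0.93) were higher and Gp1bb (-0.97) and Gp9 (-1.09) lower.

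**Figure D4:**
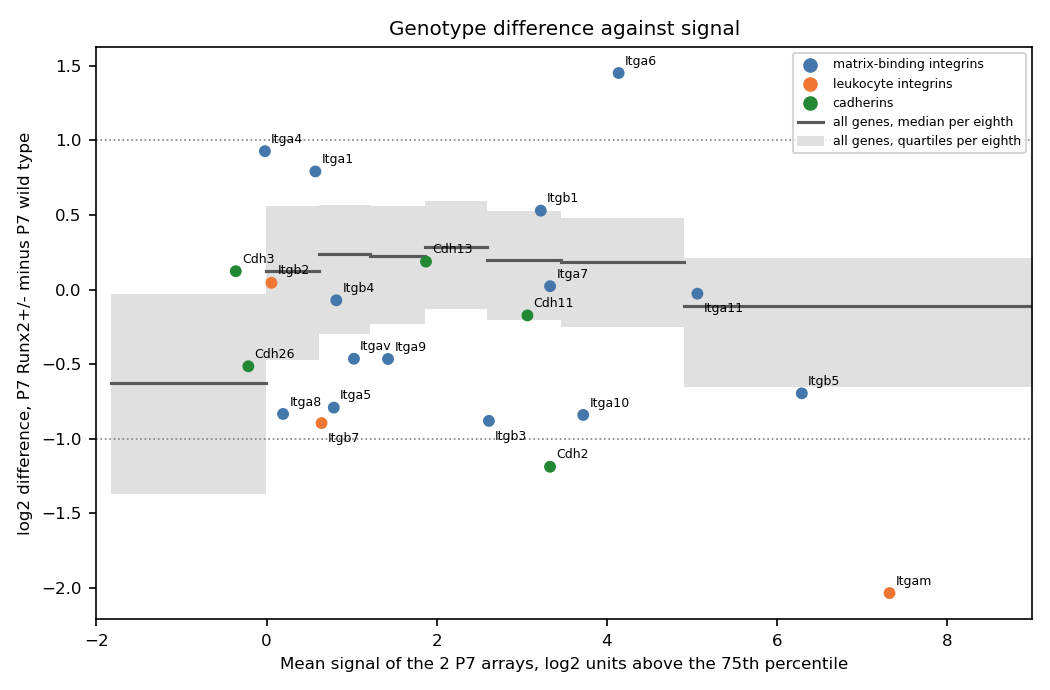
Genotype difference of the 22 members with an order (y axis, log2, P7 Runx2+/- minus P7 wild type) against their mean level on both P7 arrays (x axis, log2 units above the 75th percentile). Grey bars and lines are the quartiles and medians of all genes in 8 equal groups of signal, and dotted lines mark 2-fold. Itga6 lies above the quartiles of its signal group, and Cdh2 and Itgam lie below theirs. Other members lie outside theirs too: Itga1, Itga4, Itgb1 and Cdh3 above, and Itga5, Itga8, Itga9, Itga10, Itgav, Itgb3, Itgb5 and Itgb7 below.

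Of the leukocyte integrins, Itgam gave the largest genotype difference of the 22 members with an order, and it rested on a probe with a CA run. The probe at position 4431 had levels of 8.48, 8.34 and 6.31, so the heterozygous array was 2.04 (4.10-fold) below P7 wild type. With normexp before the 75th percentile this was -0.80, under 2-fold, beside a median of 0.62 over all genes. The probe at position 3410 had 0.56, -0.51 and -1.35 and did not stand well above background on the P7 array. It gave no order between genotypes, and its age difference was at least 2.09-fold lower at P7. The probe at position 270 was above background on the P5 array only. On the array, 34 probes hold a run of at least 8 CA units, a set chosen after these values were seen. Of these, 33 were well above background on all 3 arrays, and all 33 were at least 2-fold lower on the heterozygous than on the P7 array (-2.56 to -1.35, median -2.02). Their age differences lay between -0.60 and 0.25. The share of all genes 2-fold lower was 13.8%.

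Neutrophils carry Itgam on their surface, and their markers had the opposite genotype difference. All 10 were measured, 7 were 2-fold higher and 1 (Elane) was 2-fold lower on the heterozygous array, with a median of 2.08. For age 8 of 10 were 2-fold lower, with a median of -3.64, and Ltf differed by -4.43 for age and 3.63 for genotype. The summed neutrophil signal was 915.6, 79.3 and 355.1 times the 75th percentile on the P5, P7 and heterozygous arrays. Itgb2, the β chain that pairs with Itgam, had levels of 1.01, 0.04 and 0.08, which is 0.97 (1.96-fold) lower at P7 than at P5 and within the spot SD between genotypes. The Itgb2 differences were -0.20 for age and -0.68 for genotype with normexp before the median of detected probes, and the genotype sign turned in 3 of 6 scalings.

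**Figure D5:**
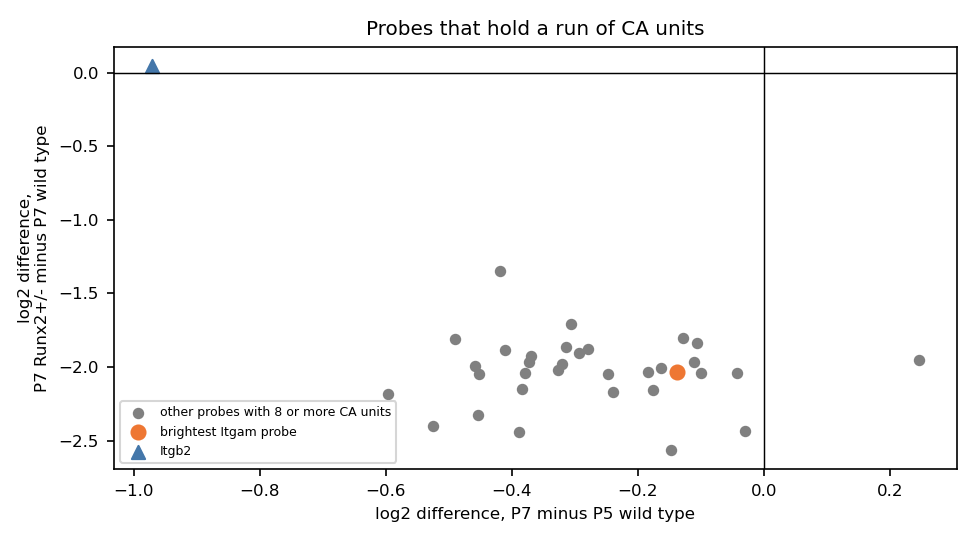
Log2 difference for genotype (y axis, P7 Runx2+/- minus P7 wild type) against that for age (x axis, P7 minus P5 wild type) of the 33 probes with a run of at least 8 CA units that were above background on all 3 arrays, with the Itgb2 probe for comparison. The Itgam probe at position 4431 (-0.14 and -2.04) lies within the cloud of the other CA probes, and Itgb2 (-0.97 and 0.04 as scaled here) does not.

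Of the remaining leukocyte chains, 1 was above background on all 3 arrays. This was Itgb7, the β chain of lymphocyte homing receptors, with levels of 1.59, 1.09 and 0.20, highest at P5 and lowest on the heterozygous array. The differences were -0.49 for age and -0.90 (1.86-fold) for genotype. Of 6 lymphocyte markers 4 lay above 0 and 2 below, with a genotype median of 0.62, among them Cd79b at 0.74 and Cd3e at -0.98. Of 3 pan-leukocyte markers with an order, Ptprc (-0.98) and Laptm5 (-0.73) lay below 0 and Coro1a (0.72) above. Itgal, the α chain of LFA-1, and Itgax, known from dendritic cells and macrophages, were above background on the P5 and heterozygous arrays and not on the P7 array. Itgal read -1.32 and -1.71 on those arrays, and Itgax -1.22 and -2.11. Macrophage markers had a genotype median of 0.52 over 8 genes and an age median of 0.02 over 7.

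Among the cadherins, Cdh2 was the member past 2-fold. Cdh2, or N-cadherin, joins osteoblasts and mesenchymal cells to each other. Its levels were 4.21, 3.93 and 2.74, so the wild-type arrays were 0.28 apart and the heterozygous array lay 1.19 (2.28-fold) below P7 wild type and 1.47 below P5. The other Cdh2 probe had 2.98, 2.75 and 1.95, again lowest on the heterozygous array, with a genotype difference of -0.80. The mean of the probes was -0.99. Under normexp with the 75th percentile, which moved all genes up by a median of 0.62, the Cdh2 genotype difference was 0.02, and with normexp before the median of detected probes it was -0.69. Osteoblast markers were lower beside it, 7 of 8 by 2-fold, with a median of -2.0 and values of -2.49 for Bglap2 and -2.48 for Col1a1. Their summed signal was 898.8, 1361 and 271.4 times the 75th percentile on the P5, P7 and heterozygous arrays. The part of osteoblast RNA in the Cdh2 value was not tested.

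Cdh11, the osteoblast or mesenchymal cadherin, gave no single direction. The probe at chr8:105156895-105156927 had levels of 3.87, 3.15 and 2.98, with an age difference of -0.72 and a genotype difference of -0.17. Its placement covers 33 bases of a 60-base probe. The probe at chr8:105157473-105157532 had 1.97, 2.05 and 2.92, with differences of 0.07 and 0.87. One probe thus set the P5 array apart and the other the heterozygous array.

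The other cadherins were dim or differed little. Cdh13, which lacks the cytoplasmic part of classical cadherins, had levels of 2.40, 1.78 and 1.97, and its age difference was -0.62. The other Cdh13 probe was at background on every array. Cdh3, or P-cadherin, had -0.73, -0.42 and -0.30, and Cdh26 had -0.23, 0.04 and -0.47. Both lay in the dimmest eighth of genes for genotype. Cdh6, a type II cadherin of kidney and neural crest, read -0.31 on the P5 array and -1.04 on the heterozygous array and was not well above background at P7 in wild type, where it was at least 1.38-fold lower than at P5. Cdh4, the muscle cadherin Cdh15 and Cdh8 were above background on the P5 and heterozygous arrays, Cdh18 on the heterozygous array alone and Cdh22 on the P5 array alone.

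Setting Runx2+/- at P7 against P5 wild type leaves out the dim P7 array, at the cost of mixing age with genotype. This pair was added after the data were seen. Of 31 members with an order, 1 was at least 2-fold higher and 6 at least 2-fold lower, while 8.67% and 15.4% of 18148 genes were (24.0% in either direction), and the spot SD was 0.14. The higher member was Itga6, just at the threshold with 1.0. The lower members were Itgam (-2.17), Cdh22 (at least 2.91-fold), Cdh2 (-1.47), Itgb7 (-1.39), Itgav (-1.07) and Cdh15 (-1.07). Cdh15 lay in the dimmest eighth of genes, whose median in this pair was -0.62 and whose lower quartile was -1.14. The Itgam value came from the probe with the CA run. The Itgam probe at position 3410 gave -1.91, and that at position 270 was at least 2.75-fold lower. Itgax (-0.89), Itgb2 (-0.93) and Itgal (-0.39) were lower as well, and another Itgal probe, at position 3637, gave -1.69. All 5 genes classed here as leukocyte integrins that had an order lay below 0, while 55.49% of all genes with an order lay above 0. Itgal and Itgax lay in the same dimmest eighth as Cdh15. Itga4, also known from leukocytes but counted here with the matrix-binding integrins, was 0.66 higher. Itgb3, Itgb5 and Itgb4 lay within the spot SD of 0. In this pair the probes of Itga1 gave 0.08 and -1.96, those of Itgb1 -0.25 and -1.43, and those of Cdh11 -0.89 and 0.94.

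The adaptors that couple integrins to actin and the catenins were measured on the same arrays. Of 12 integrin adaptors with an order for age, 1 (Tln2, a talin, 1.66) was 2-fold higher, and of 11 for genotype 1 (Lims1, which binds integrin-linked kinase, 1.03) was. The adaptor medians were 0.18 and 0.13, and 6.33% and 5.2% of all genes were 2-fold higher in these comparisons. For the catenins, which tie cadherins to actin, the genotype differences were 0.35 for Ctnna1, 0.66 for Ctnnb1 and 0.62 for Ctnnd1. Ctnna2, not above background on the P7 array, was at least 1.96-fold higher on the heterozygous array. For age Ctnnd2, of the 4 catenins with an order, was at least 2.03-fold lower at P7. Of 16 integrin ligands, 5 were 2-fold lower and 2 higher on the heterozygous array. Over all genes the shares were 13.8% lower and 5.2% higher. Those lower were Npnt, Col1a1 (-2.48), Col1a2 (-1.91), Spp1 and Tnc, and the higher were Vcam1 and Madcam1 (at least 2.98-fold, a bound). For age, Tnc (-1.12) and Madcam1 (at least 4.11-fold, a bound) were lower by 2-fold or more and Npnt was 2-fold higher.

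The letters TGTGGT, the core that Runx factors bind, were searched on both strands of the RefSeq promoters of the GRCm38.p6 build, 250 bases before to 50 bases after the start. Of the 48 members, 31 matched a promoter entry, with 35 promoters in all. Cdh2 and Itga6, both past 2-fold for genotype, had no entry and were not searched. The same held for Cdh11, Itgb2, Itgb3 and Itga7, among others. The letters stood in 6 of the 35 member promoters (17.1%) and in 16.8% of 32851 promoters. The members holding them were Itga3, Itga4, Itgax, Cdh10, Cdh15 and Cdh20. Such a match describes the letters of the window and is no evidence of binding.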

How the data were processed

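Amplified, Cy3-labelled RNA of each group went on 1 Agilent array, per the labels' protocols. The authors deposited scanner files whose processed signal is an intensity on a linear scale, corrected for background by Feature Extraction (10.7.1.1 in the file headers, 9.5.1.1 per the submitters' processing notes). They also deposited a table of processed intensity values. How it was made is not given in the sources used, and it served as an alternative.

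Control spots and spots flagged as outliers were left out, spots of a probe were averaged on the log2 scale (55680 probes), and each array's 75th percentile was subtracted. The floor of an array was its lowest value well above background (-2.12 at P5, -0.78 at P7 and -3.25 in the heterozygote). A gene took its brightest probe. A difference needed the gene well above background on both arrays. With 1 such array it was a bound against the floor, kept where that array was the higher. No spot was saturated, and precision is limited by having 1 array per group. A gene was called at 2-fold. Symbols came from RefSeq (GRCm38.p6) for 27234 probes, and 2838 were updated. Probe positions are those of the files (mm9). All members above background are named. From each context or marker list, up to 4 genes with the largest differences are named, plus exceptions stated as such. Markers at background, Krt5, Krt15, Krt18, Acan, Ctsk, Laptm5, Coro1a, Pf4, Tnnt3, Elane, Kdr, Cd3e, Cd79b, Ptprc and the catenins are named as counterparts. So are Des, Gp1bb, Gp9, Fn1 and Vtn. The members and lists were chosen with earlier results of these data known. Tools were R 4.3.3, limma 3.58.1 and Python 3.11.15, and the steps were tested on simulated data.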

Additional observations from a re-analysis of the deposited data

How the results depend on the processing

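No paired analysis was possible because each group has 1 array. Beside the scaling to the 75th percentile, quantile normalization, cyclic loess, the median of detected probes, normexp (offset 50) before either scaling, the mean over probes, no floor, no bounds, the authors' values and folds of 1.5 and 3 were tried, and the probe nearest the 3′ end and the brightest probe without a dinucleotide repeat were added after seeing the data. The cause of the shifts was not tested.

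For age, the count of members 2-fold apart (0 as reported) was 1 with quantile normalization, the median of detected probes, normexp before that median, the mean over probes or no repeat probe. It was 2 with loess or the authors' values, 3 with normexp before the 75th percentile or no floor, and 10 at 1.5-fold. For genotype the count (3 as reported) was 7 with loess, 5 with normexp before the median or the authors' values, 9 with no floor, 1 with the mean over probes or at 3-fold, and 11 at 1.5-fold.

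With normexp before the 75th percentile, matrix-binding medians were -0.13 for age and 0.39 for genotype, the leukocyte genotype median was -0.30, and Cdh2 turned to 0.017. That setting moved the median of all genes to -0.24 for age and 0.62 for genotype. Leukocyte age medians were -0.10 with loess, -0.22 with normexp before the median and -0.97 without repeat probes. Leukocyte genotype medians were -1.14 with loess, -0.69 with no floor and -0.43 without repeat probes. Cadherin medians were -0.017 for age with no floor, and for genotype -0.69 with normexp before the median and 0.12 with the mean over probes. Of the 45 single differences, 33 moved by more than the spot SD with normexp before the 75th percentile, as did Cdh2, the 1 difference past 2-fold that changed sign there. In turn, 32 moved with normexp before the median, 13 with loess, 8 with the mean over probes and 2 with quantile normalization. Signal over background limits what the P7 array, the dimmest of the 3, can order.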
